A study of Mus musculus with 2 samples.

Results

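The Adam and Adamts genes encode 2 families of zinc-dependent metalloproteinases, and their transcripts were followed here by cell type and library in digit wounds. All rows of the gene list whose symbol is Adam or Adamts with a number were taken, without the Adamts-like genes, and those with at least 10 unique molecular identifiers (UMIs, 1 for each captured transcript) over both libraries were kept. This gave 41 of 53 listed genes, 22 of 34 Adam and 19 of 19 Adamts, among 33696 genes in all. Of the 12 Adam genes left out, 9 had 0 UMIs and Adam24, Adam29 and Adam34 had between 1 and 8 UMIs. ICR mice had their digits cut through the middle phalanx (P2) at postnatal day 3 (PN3), and at PN7 a bead that carried either FGF8 (500 ng/µl) or bovine serum albumin (BSA, 0.1%), the control protein, was placed in the wound. At PN8, 24 h later, the tissue beyond the bone stump was dissected free of its outer epithelium, dissociated for single-cell RNA sequencing and pooled from 20 digits of 5 mice of both sexes for each treatment. Each treatment is therefore 1 library, with no replicate check and no p-value, and the FGF8 pool is likely to include digits that would not have regenerated. Treatment, animals, dissection and library cannot be told apart, and every interval below is a 95% interval for counting error only.

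ADAM proteins are mostly anchored in the cell membrane, where the active members cut other membrane proteins close to the surface and so release ligands and receptors, a step called shedding. ADAMTS proteins are secreted, bind the extracellular matrix through thrombospondin repeats, and cut proteoglycans, procollagens and other matrix proteins. Some ADAM proteins have lost the catalytic site and act in adhesion or in sperm, and tissue inhibitors of metalloproteinases (TIMPs) and the membrane protein RECK restrain members of both families.

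The active site of a member is a stretch in which a histidine and a glutamate are followed by 2 further histidines that hold the zinc ion. The coding sequences of GENCODE vM39 were searched in frame for the codons of this site, which covers 33 bases, or 11 codons. In 26 of the 41 genes the fixed codon before the last histidine was a glycine codon, in 5 (Adamts1, Adamts4, Adamts9, Adamts15 and Adamts20) it was an asparagine codon, and in Adamts8 it was neither. The glycine form was found in 0.324% of 21289 protein-coding genes, the asparagine form in 0.0235% (these 5 genes alone) and the form with any other codon there in 0.117%. The sites are shown for the genes on which the results turn, on the coding strand 5′ to 3′, with the histidine and glutamate codons and the fixed codon before the last histidine in capitals.
Adam8: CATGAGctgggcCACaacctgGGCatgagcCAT
Adam10: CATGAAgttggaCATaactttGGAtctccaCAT
Adam17: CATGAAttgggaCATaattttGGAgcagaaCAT
Adam12: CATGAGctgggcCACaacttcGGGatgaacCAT
Adamts5: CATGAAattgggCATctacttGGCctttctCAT
Adamts1: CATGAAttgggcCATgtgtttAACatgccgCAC
Adamts4: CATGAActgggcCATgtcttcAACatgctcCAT
Adamts9: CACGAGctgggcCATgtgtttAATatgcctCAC
Adamts8: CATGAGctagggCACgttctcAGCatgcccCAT

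On GRCm39, the build of the files, the Adam8 site lies in exon 11 at chr7:139567806-139567838 on the minus strand, and that of Adam12 in exon 11 at chr7:133562887-133562919 on the minus strand. The Adam17 site lies in exon 12 at chr12:21386733-21386765 on the minus strand. The other sites shown are split over 2 exons, so that their spans hold an intron: Adam10 at chr9:70661578-70668867 (plus), Adamts5 at chr16:85674903-85684714 (minus), Adamts1 at chr16:85596079-85596433 (minus), Adamts4 at chr1:171080779-171081484 (plus), Adamts9 at chr6:92882266-92885474 (minus) and Adamts8 at chr9:30864017-30864674 (plus). No such site was found in 9 Adam genes, namely Adam2, Adam3, Adam4, Adam5, Adam11, Adam18, Adam22, Adam23 and Adam32. Of these, Adam2, Adam3, Adam5, Adam18 and Adam32 are known from sperm, and Adam11, Adam22 and Adam23 from adhesion between neural cells. Adam1a and Adam1b share the same 33 bases, and whether reads of one were counted for the other was not tested. Nor was this tested where Adam12 overlaps A130023I24Rik and Adam4 overlaps Cox16 on the same strand.

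The BSA library held 3703 cell barcodes and 67739460 UMIs, the FGF8 library 7249 barcodes and 124889213 UMIs, and 6 barcodes occurred in both. After filtering, 3252 BSA and 6715 FGF8 cells remained. Of the cells whose sex could be called from sex-linked transcripts, 79.3% were female in the BSA pool and 24.6% in the FGF8 pool, so ratios are also given within each sex. The genes studied took 1203 counts per 1000000 UMIs (CPM) in the BSA library and 1018 CPM in the FGF8 library. Cells were clustered and named "X-like" from marker lists, and the largest class, fibroblast-like, held 1714 BSA and 3326 FGF8 cells with median depths of 20048 and 18606 UMIs. All 8 fibroblast markers were detected in it, but their summed level was 32118 CPM with BSA and 17430 CPM with FGF8, and 0 of 8 markers were higher with FGF8.

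The first question was in which cells these proteases were transcribed. When 10 cell types were compared over both libraries, 8 of the 41 genes had their highest level in fibroblast-like cells, where 8.49% of all 22542 genes did. There were 9 with their highest level in smooth muscle or pericyte-like cells (9.01% of all genes), 9 in Schwann-like cells (16.8%) and 6 in neutrophil-like cells (14.5%). For 7 of the 41 (Adam1a, Adam1b, Adam4, Adam5, Adam18, Adam21 and Adam28) the leading type held 1 to 5 UMIs, so that their place is poorly fixed. The number in fibroblast-like cells was 10 in the BSA library alone and 5 in the FGF8 library alone. The shares of all genes are for both libraries summed and were not computed for each library. The 9 in Schwann-like cells included catalytic and non-catalytic members. The 6 in neutrophil-like cells were all Adam genes, and only Adam8 and Adam17 of them had more than 19 UMIs there.

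**Figure D1:**
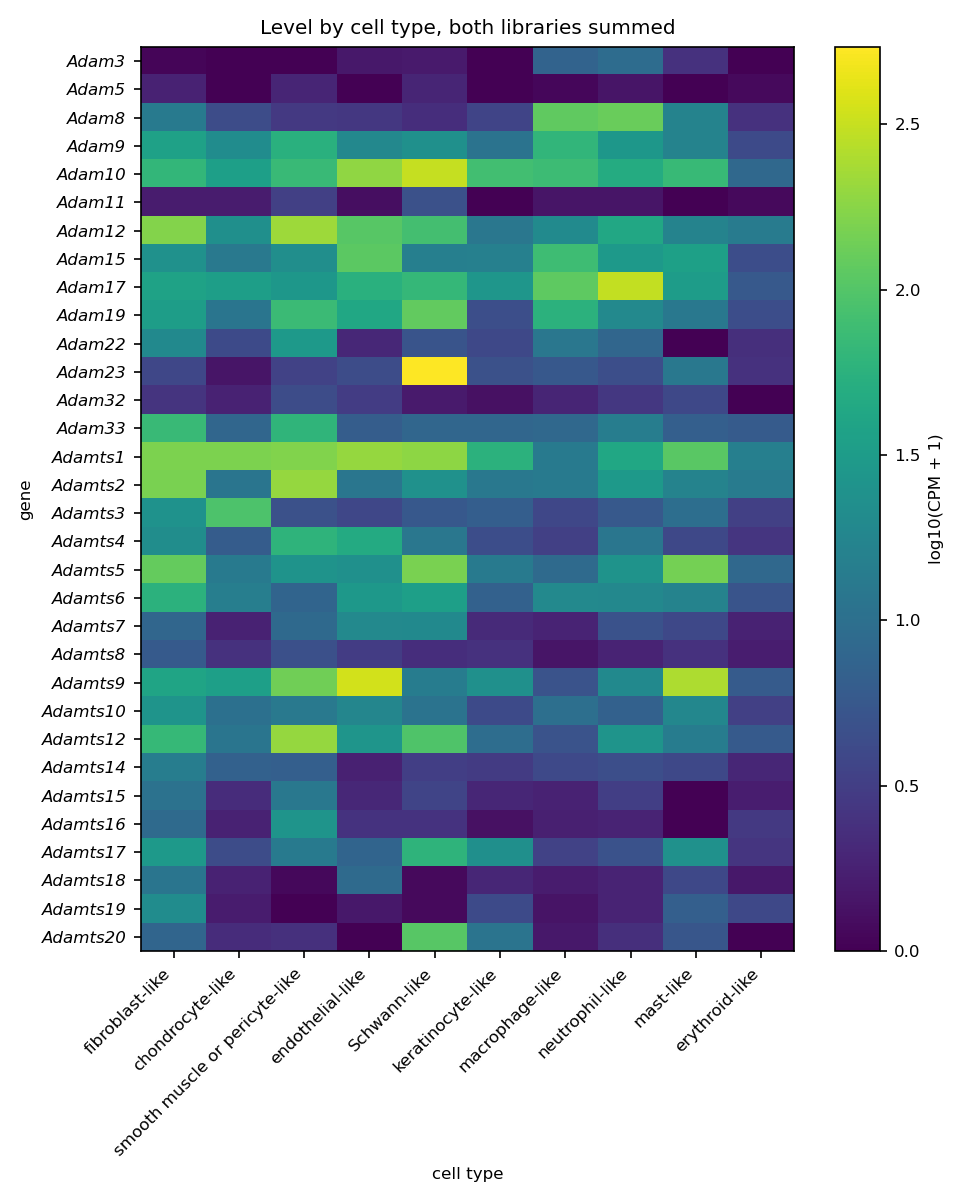
Level of the genes with at least 100 UMIs (rows) in the 10 named cell types (columns), both libraries summed, as the log10 of CPM plus 1. Adam23 and Adamts20 stand out in Schwann-like cells, Adam8 and Adam17 in neutrophil-like and macrophage-like cells, Adamts9 in endothelial-like and mast-like cells and Adamts3 in chondrocyte-like cells.

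The gene most restricted to 1 cell type was Adam23, which encodes a non-catalytic neuronal adhesion protein. Its level in Schwann-like cells was 541 CPM in both libraries, in 92.7% of BSA and 94.2% of FGF8 cells. The next cell type, mast-like cells, had 11.6 CPM over both libraries, 46.8-fold less. Adamts20, a versican-cleaving protease known from melanoblast development, was at 114 CPM (BSA) and 96.9 CPM (FGF8) in Schwann-like cells, 10.1-fold above keratinocyte-like cells over both libraries. Both genes thus ranked Schwann-like cells first in each library. Adamts17, linked to fibrillin matrix, was also highest there, at 58.8 CPM (BSA) and 58.2 CPM (FGF8), 2.01-fold above fibroblast-like cells. Adam10, the main sheddase of Notch and of cadherins, was present in every named type and peaked in Schwann-like cells at 336 CPM (BSA) and 294 CPM (FGF8), followed by endothelial-like cells at 187 and 189 CPM. Adam19, a sheddase of neuregulins, was at 120 CPM (BSA) and 117 CPM (FGF8) in Schwann-like cells, where Adamts5, an aggrecanase, was at 131 and 168 CPM. For Adamts5 the next type, mast-like cells, was at 118 and 174 CPM, and the order of these neighbours differed between libraries.

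Among blood cells, Adam17, which sheds TNF and the ligands of the EGF receptor, was highest in neutrophil-like cells at 349 CPM (BSA) and 284 CPM (FGF8), 2.64-fold above macrophage-like cells. Adam8, a leukocyte sheddase, was at 93.3 CPM (BSA) and 139 CPM (FGF8) in neutrophil-like cells and at 92.4 and 130 CPM in macrophage-like cells. The counting intervals of these last values overlapped within each library, so neutrophil-like and macrophage-like cells were not separated for Adam8. Adam9, a widely expressed sheddase, was at 59.3 CPM (BSA) and 63.3 CPM (FGF8) in macrophage-like cells, close to the 52.9 and 54.1 CPM of smooth muscle or pericyte-like cells, and these intervals overlapped as well. Adam15, which has an adhesive domain, was highest in endothelial-like cells at 101 CPM (BSA) and 117 CPM (FGF8), 1.46-fold above macrophage-like cells. Adam3, a sperm protein gene without the site, had 136 UMIs in the cells kept after filtering. Of these, 102 were in macrophage-like cells, at 5.22 CPM (BSA) and 7.07 CPM (FGF8).

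Over both libraries, 4 of the 19 Adamts genes were highest in Schwann-like cells and the others in connective tissue or vessel cells. Adamts9, a versicanase, was at 272 CPM (BSA) and 413 CPM (FGF8) in endothelial-like cells but at 360 and 139 CPM in mast-like cells, so its leading type depended on the library. Adamts3, which trims the amino end of procollagen II, was 3.89-fold higher in chondrocyte-like cells than in fibroblast-like cells, at 124 CPM (BSA) and 76.1 CPM (FGF8). Its relatives Adamts2 and Adamts14 differed from it. Adamts2, which trims procollagen I and III, was at 199 CPM (BSA) and 203 CPM (FGF8) in smooth muscle or pericyte-like cells and at 187 and 136 CPM in fibroblast-like cells, with overlapping intervals in the BSA library, but at 8.15 to 15.3 CPM in chondrocyte-like cells. Adamts14 was highest in fibroblast-like cells at 15.9 CPM (BSA) and 12.4 CPM (FGF8), 2.26-fold above chondrocyte-like cells. Adamts12 was 2.10-fold higher in smooth muscle or pericyte-like cells (216 CPM with BSA, 190 CPM with FGF8) than in Schwann-like cells, and Adamts16 was 3.25-fold higher there than in fibroblast-like cells (38.7 and 14.5 CPM). The Adam gene Adam22 led in the same cells by 1.58-fold (42.5 and 19.1 CPM). Adamts19 and Adamts6 led in fibroblast-like cells, 3.51-fold and 1.62-fold above the next type.

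The main comparison was between FGF8 and BSA in fibroblast-like cells. Of the 18 Adamts genes with at least 10 UMIs in these cells, 17 were lower with FGF8 and 1, Adamts1, was higher. Of the 18 Adam genes, 11 were lower and 7 higher. The number of Adamts genes that were lower depended on the cells used: it was 10 of 18 (median -0.31) in the few cells that a finer clustering named fibroblast-like, 13 with a stricter cell filter, with equal weight of cells or with cells thinned to 2000 UMIs, and 14 with the same make-up of subclusters. No share of all genes was computed for those other cells and settings. In the main comparison, 55.9% of all 20053 genes with at least 10 UMIs had a log2 ratio of FGF8 over BSA below 0 and 44.1% above 0. The median log2 ratio was -0.57 for Adamts, -0.24 for Adam and -0.07 for all genes, and 10 of 18 Adamts genes against 19.2% of all genes were below -0.5. Past -1 were 3 Adamts and 2 Adam genes, where 5.06% of all genes were, and above 1 were 4 Adam genes, where 6.62% were. The remaining 5 kept genes (Adam1b, Adam3, Adam18, Adam21 and Adamts13) had at most 9 UMIs in these cells and no ratio was computed.

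**Figure D2:**
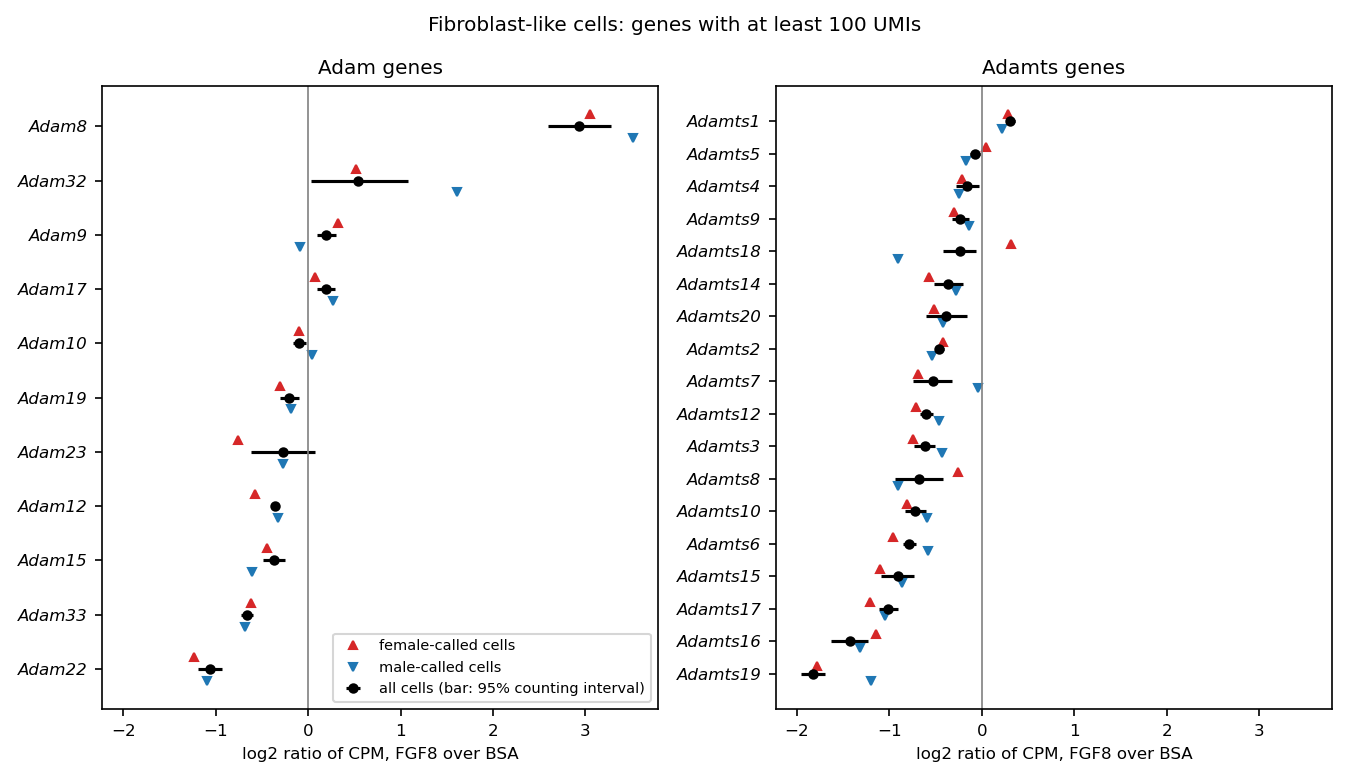
Log2 ratio of CPM, FGF8 over BSA, in fibroblast-like cells for the 29 genes with at least 100 UMIs there (black points, with 95% counting intervals), and in female-called and male-called cells alone (triangles). Adam8 stands apart at 2.93, Adamts19 is lowest at -1.82, and of the Adamts genes Adamts1 alone lies above 0 in the pooled cells.

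Adam8 had the highest ratio among genes with at least 100 UMIs. It had 79 UMIs in BSA and 1182 UMIs in FGF8 fibroblast-like cells, or 2.22 and 16.9 CPM, a log2 ratio of 2.93 (2.60 to 3.27). The gene is among those that the study listed from these same libraries, so its direction here is not independent evidence. Within female cells the ratio was 3.05 and within male cells 3.52, the latter against 10 UMIs in male BSA cells, and 1.85 in the 243 BSA and 377 FGF8 cells that a finer clustering named fibroblast-like. Those cells are 1 subset led by Agtr2, Lpl, Pi16 and Dlk1, and the finer cluster led by Prg4 was left unnamed. The transcript was found in 2.80% of BSA and 13.3% of FGF8 cells. Among cells with at least 2000 UMIs, thinned to that number, it was found in 0.307% (upper bound 0.716%) and 2.11% (1.64 to 2.67%). In Schwann-like cells, thinned alike, the share was 0.847% (1 cell of 118) and 0.424% (1 cell of 236), with an upper bound of 2.34% for the latter, and in smooth muscle or pericyte-like cells 0 of 179 and 0 of 276 cells had it, with exact upper bounds of 2.04% and 1.33%. The BSA share was not separated from that background, while the FGF8 share was above the smooth muscle or pericyte bound of 1.33%. The Schwann bound of 2.34% rests on 1 cell of 236, so it could not separate the FGF8 shares of the cell types. With all UMIs, Adam8 was at 1.31 CPM in Schwann-like cells over both libraries, the lowest of the 10 types. Schwann-like cells had median depths of 15454 (BSA) and 11679 (FGF8) UMIs before thinning.

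Markers of the leukocytes that carry most Adam8 per cell were low in these cells. The 8 macrophage markers, 6 of them higher with FGF8, summed to 16.7 CPM (BSA) and 18.4 CPM (FGF8), which is 0.295% and 0.340% of their level in macrophage-like cells, whereas Adam8 stood at 2.41% and 13.0% of its macrophage level. The 7 neutrophil markers summed to 15.6 and 33.8 CPM, 0.0490% and 0.0991% of their level in neutrophil-like cells, with 6 of 7 higher with FGF8 and 2 (BSA) and 1 (FGF8) at 0. In the FGF8 library the 442 cells with Adam8 had 20.1 CPM of the macrophage list against 17.9 CPM in the 2884 cells without it, but 61.8 against 25.8 CPM of the neutrophil list. The part of leukocyte transcripts in the Adam8 result was not tested.

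Within the fibroblast-like cells, 6 subclusters were made from variable genes without any Adam or Adamts gene. Subcluster 0 was led by Prg4, which encodes the joint lubricant lubricin, with Mmp3 and cell division genes. Subcluster 2 was led by Lpl, Dlk1 and Agtr2, subcluster 3 by Fmod and Comp, and subcluster 5, of 37 BSA and 81 FGF8 cells, by Corin and Sox18. Subcluster 4 had a median of only 2637 (BSA) and 2602 (FGF8) UMIs per cell, against 12221 to 34272 in the others. Subcluster 0 held 16.2% of BSA and 32.2% of FGF8 fibroblast-like cells. The genes that define it differ between the libraries, so this is no measure of cell number.

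**Figure D3:**
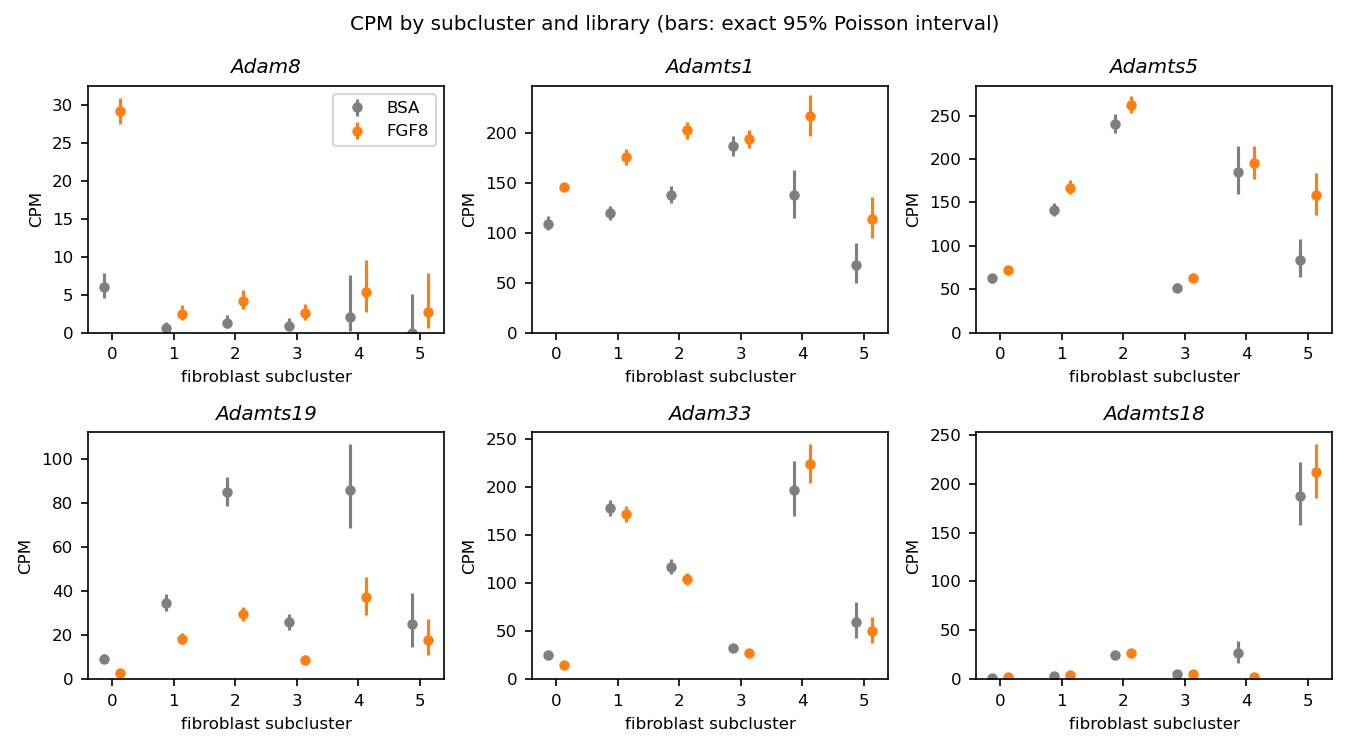
CPM of 6 genes in the 6 fibroblast subclusters, by library, with exact 95% Poisson intervals. Adam8 is concentrated in subcluster 0 and higher with FGF8, Adamts19 is lower with FGF8 in each subcluster, Adamts1 and Adamts5 lie higher with FGF8, Adamts5 in subcluster 4 with an interval that held 0 for the ratio, Adam33 is lowest in subcluster 0, and Adamts18 peaks in subcluster 5 in both libraries.

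Adam8 was at 24.7 CPM in subcluster 0 over both libraries and at most 4.32 CPM in the others. In that subcluster it went from 6.06 CPM (BSA) to 29.1 CPM (FGF8), a log2 ratio of 2.27 (1.87 to 2.69), and in subcluster 2 from 1.27 to 4.22 CPM, a ratio of 1.73 (0.72 to 2.89). All 5 subclusters with at least 10 UMIs had a ratio above 0, between 1.35 and 2.27, although in subcluster 4 the interval held 0. Among FGF8 fibroblast-like cells with Adam8, 80.1% lay in subcluster 0, against 24.9% of the cells without it. The cells with Adam8 also had 5938 CPM of Prg4 against 906 CPM, and were deeper, with a median of 36291 against 16895 UMIs. With both libraries given the same make-up of subclusters, the Adam8 ratio was 2.17.

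The widely expressed sheddases Adam17, Adam9 and Adam10 had ratios near 0. Adam17 had 33.2 CPM (BSA) and 37.9 CPM (FGF8), a log2 ratio of 0.19 (0.09 to 0.29), and Adam9 had 32.6 and 37.3 CPM, a ratio of 0.20 (0.10 to 0.30). Adam10 was at 65.7 CPM (BSA) and 61.5 CPM (FGF8), a ratio of -0.10 (-0.17 to -0.02). None of these directions was stable, since Adam9 turned to -0.09 and Adam10 to 0.04 in male-called cells, and Adam17 to -0.05 with cells thinned to 2000 UMIs. Adam12, which sheds EGF-receptor ligands and marks activated stromal cells, went from 195 to 152 CPM, a ratio of -0.36 (-0.40 to -0.31). Adam15 (26.9 to 20.8 CPM, -0.37) and Adam19 (35.7 to 31.0 CPM, -0.20) were lower in both sexes. Adam33, a sheddase of mesenchymal cells, went from 93.0 CPM (BSA) to 58.9 CPM (FGF8), a ratio of -0.66 (-0.73 to -0.59), but within subcluster 1, where it had the most UMIs, it was at 178 and 172 CPM.

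The members without a catalytic site followed no single direction. Adam22, a neural receptor of secreted LGI proteins, went from 28.6 CPM (BSA) to 13.6 CPM (FGF8), a log2 ratio of -1.07 (-1.20 to -0.94), or -1.24 within female and -1.10 within male cells, and -0.55 with the same make-up of subclusters. Adam23 was at 3.18 and 2.63 CPM, an interval that held 0 (-0.62 to 0.08). The sperm-type gene Adam2 had 2 UMIs in 2 BSA cells and 72 UMIs in 35 FGF8 cells, a ratio of 4.19 with an interval of 2.29 to 7.27. In male-called cells the Adam2 ratio was 1.52, with an interval that held 0 (-0.42 to 4.62). Female-called cells had 0 BSA and 22 FGF8 UMIs of Adam2. Adam32 had 43 and 123 UMIs, a ratio of 0.54 (0.03 to 1.08). Adam2 and Adam32 remained near or below 2 CPM in each library, so the size of these ratios is poorly fixed. Adam11 was lower (33 and 31 UMIs, -1.07). Adam5 had 42 and 47 UMIs, a ratio of -0.82, but 17 of the 42 BSA UMIs were in 1 cell, and without that cell the ratio was -0.07 (-0.80 to 0.69). Adam4, also without the site, had 15 and 24 UMIs, a ratio of -0.30. Of the remaining genes with few UMIs, which do hold the glycine form of the site, Adam1a had 14 and 18 UMIs and a ratio of -0.61, with an interval that held 0. Adam30 had 4 and 27 UMIs and a ratio of 1.78, with an interval that left out 0. Adam28 had 2 and 8 UMIs, all 8 of them in 1 FGF8 cell.

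Adamts19, a secreted protease with no well-known substrate, had the lowest ratio among Adamts genes, and went from 38.7 CPM (BSA, 1373 UMIs) to 10.9 CPM (FGF8, 763 UMIs). The log2 ratio was -1.82 (-1.95 to -1.70), or -1.79 within female cells and -1.20 within male cells. It was lower with FGF8 in all 6 subclusters (-1.84 to -0.48, with an interval that held 0 in subcluster 5), and in subcluster 2, where it had the most UMIs, it was at 84.8 CPM (BSA) and 29.4 CPM (FGF8). The share of cells with the transcript, thinned to 2000 UMIs, was 6.33% (upper bound 7.63%) and 2.93% (2.37 to 3.58%) while 0 of 118 and 0 of 236 Schwann-like cells had it, with exact upper bounds of 3.08% and 1.55%. Adamts16 went from 13.3 to 4.94 CPM, a ratio of -1.43 (-1.63 to -1.23), and was also lower in smooth muscle or pericyte-like cells (38.7 to 14.5 CPM, a ratio of -1.42, -1.92 to -0.94). Both genes are also among those the study listed from these libraries. Adamts17 was the other Adamts gene below -1, at 43.6 CPM (BSA) and 21.6 CPM (FGF8), a ratio of -1.01 (-1.12 to -0.91).

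Of the aggrecanases and versicanases, Adamts1 alone was above 0. Adamts1, which also inhibits angiogenesis, had 135 CPM (BSA) and 166 CPM (FGF8), a log2 ratio of 0.31 (0.26 to 0.35). It was above 0 in all 10 named cell types, from 0.12 in smooth muscle or pericyte-like cells to 2.23 in macrophage-like cells, with an interval above 0 in 6 of them. In endothelial-like cells it went from 104 to 279 CPM, a ratio of 1.42 (1.18 to 1.67), in Schwann-like cells from 121 to 231 CPM and in chondrocyte-like cells from 99.1 to 184 CPM. Adam8 was above 0 in 7 of 7 types with at least 10 UMIs, with an interval above 0 in 4 of them, namely fibroblast-like, chondrocyte-like, macrophage-like and neutrophil-like cells. Endothelial-like cells, with 6 BSA and 1 FGF8 UMIs, were below this minimum. In chondrocyte-like cells its ratio of 2.94 rested on 1 BSA and 15 FGF8 UMIs. There the macrophage marker list went from 9.18 CPM (BSA) to 129 CPM (FGF8), with 8 of 8 markers higher, and the neutrophil list from 3.06 to 163 CPM, with 6 of 7 higher, and their part in this value was not tested. Adamts5 was nearly level in fibroblast-like cells, at 124 CPM (BSA) and 118 CPM (FGF8), a ratio of -0.08 (-0.13 to -0.02), yet its ratio was above 0 in all 6 subclusters (0.07 to 0.91), with an interval that held 0 in subcluster 4. With the same make-up of subclusters the ratio was 0.20. Adamts4 was at 22.6 and 20.3 CPM (-0.16, -0.28 to -0.03) and Adamts9 at 42.7 and 36.3 CPM (-0.23, -0.33 to -0.14). Adamts20 went from 8.14 to 6.24 CPM (-0.38), Adamts15 from 14.0 to 7.47 CPM (-0.91, -1.09 to -0.73) and Adamts8 from 6.51 to 4.06 CPM (-0.68).

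The procollagen N-proteinases were all lower. Adamts2 went from 187 CPM (BSA) to 136 CPM (FGF8), a log2 ratio of -0.46 (-0.50 to -0.41), Adamts3 from 30.8 to 20.1 CPM (-0.62, -0.73 to -0.50) and Adamts14 from 15.9 to 12.4 CPM (-0.36, -0.52 to -0.20). Adamts6 (77.0 to 44.7 CPM, -0.78) and Adamts10 (34.2 to 20.7 CPM, -0.72), which act on fibrillin microfibrils, were lower by similar amounts. The cartilage matrix proteases Adamts7 (8.87 to 6.14 CPM, -0.53) and Adamts12 (85.6 to 56.5 CPM, -0.60) were lower as well. Adamts18 was at 11.8 and 10.0 CPM (-0.24), which was 0.31 within female and -0.91 within male cells. Only 84 BSA cells had Adamts18, and 1 of them held 59 of its 420 UMIs. Its level was highest in subcluster 5, at 187 CPM (BSA) and 212 CPM (FGF8), 7.83-fold above subcluster 2 over both libraries.

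Most Adamts ratios were smaller once both libraries were given the same make-up of subclusters. Of the 18 Adamts genes, 14 had their lowest level in subcluster 0, as did 4 of the 11 Adam genes with at least 100 UMIs. Over all 14234 genes with at least 100 UMIs the share was 32.5%. That share is for both libraries summed. Within the FGF8 library alone 14 of 18 Adamts genes were lowest in subcluster 0, but within the BSA library only 6 of 18. The all-gene share was not computed within each library. With equal make-up of subclusters, 16 of 18 Adamts ratios came closer to 0, and the median went from -0.57 to -0.36. Below -0.5 there remained 3 (Adamts16, Adamts17 and Adamts19) in place of 10, and Adamts5, Adamts9 and Adamts18 changed sign. Among the 11 Adam genes 7 came closer to 0 and none changed sign. The same weighting was not run over all genes, so no all-gene share stands beside these counts. Whether the shift is particular to these families was not tested. Within subcluster 0 itself 15 of 18 Adamts genes were below 0 (55.9% of all genes there), with a median of -0.63 (all genes -0.06). In the other subclusters the Adamts median lay between -0.26 and 0.03. The part of cell make-up in the ratios cannot be told apart from a change within cells, since the subclusters rest on genes that themselves differ between libraries.

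**Figure D4:**
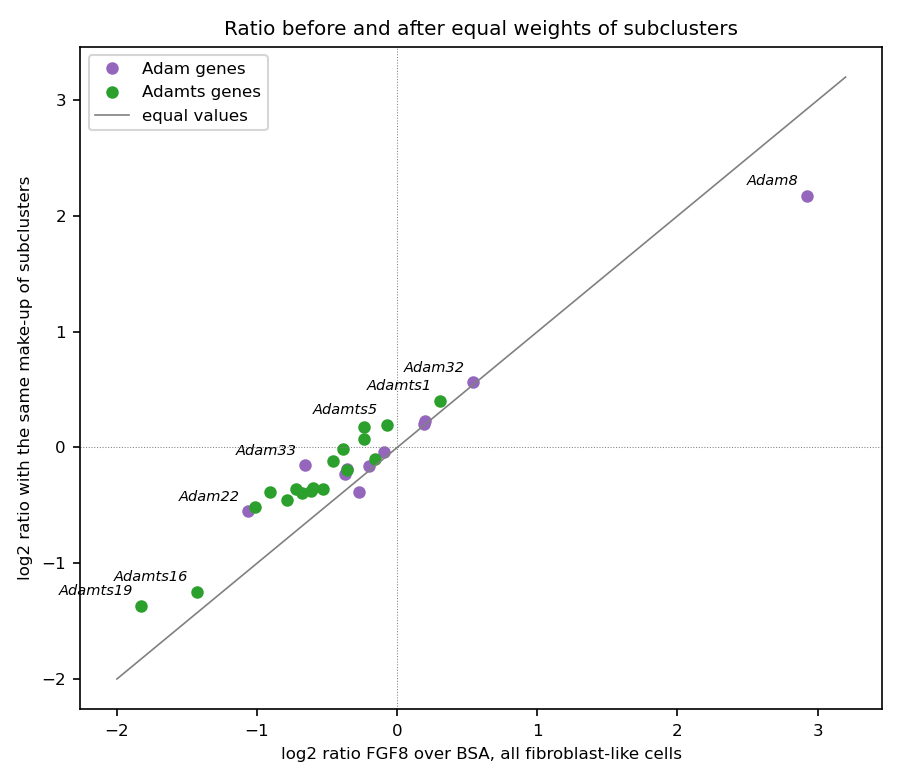
Log2 ratio of FGF8 over BSA in fibroblast-like cells as measured (horizontal axis) and with both libraries given the same make-up of subclusters (vertical axis), for the 29 genes with at least 100 UMIs. Most genes below 0 lie above the line of equal values, and Adam8 lies below it at 2.17.

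In most other cell types the Adamts genes did not lie so largely below 0. The Adamts genes above 0 were 5 of 11 in chondrocyte-like cells (46.9% of all genes), 10 of 16 in smooth muscle or pericyte-like cells (52.4%), 7 of 14 in Schwann-like cells (49.2%) and 7 of 13 in keratinocyte-like cells (62.0%), shares near those of all genes. In mast-like cells they were 3 of 7 (50.9%) and in erythroid-like cells 1 of 12 (23.9%). In macrophage-like cells 9 of 15 Adamts genes were above 0 (55.9%), and 7 were above a log2 ratio of 1, where 8.43% of all 15279 genes were. Adamts1 went from 3.65 CPM (BSA) to 17.1 CPM (FGF8), Adamts5 from 3.13 to 10.3 CPM and Adamts2 from 6.09 to 15.6 CPM. Fibroblast markers were read in the same cells. Their summed level in fibroblast-like cells, to which their percents below refer, itself went from 32118 CPM (BSA) to 17430 CPM (FGF8). The 8 fibroblast markers summed to 1263 CPM (BSA) and 1685 CPM (FGF8) in macrophage-like cells, 6 of 8 being higher, which is 3.93% and 9.67% of their level in fibroblast-like cells of the same library. Adamts1 stood at 2.71% and 10.3% of its fibroblast level and Adamts5 at 2.52% and 8.73%. In neutrophil-like cells 6 of 9 Adamts genes were above 0 (59.9%). The marker list stood there at 9.60% (3084 CPM, BSA) and 25.3% (4411 CPM, FGF8), Adamts5 at 2.58% and 27.0% and Adamts1 at 11.9% and 30.8%. None of the 8 markers was at 0 in either type, and the part of fibroblast transcripts in these members' ratios was not tested.

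In endothelial-like cells the markers went the other way, at 9.02% (BSA) and 4.93% (FGF8) of their fibroblast level, while Adamts1 went from 77.2% to 167% of its own. In these cells 8 of 12 Adamts genes were above 0, where 51.0% of all genes were. Adamts4 went from 23.5 to 63.6 CPM, a log2 ratio of 1.44 (0.93 to 1.97), and Adamts9 from 272 to 413 CPM, a ratio of 0.60 (0.44 to 0.76). The endothelial values came from 121 BSA and 142 FGF8 cells, and the make-up of these cells differed between the libraries. The 5 lymphatic endothelial markers summed to 4100 CPM (BSA) and 1532 CPM (FGF8), with 0 of 5 higher with FGF8, and the 7 endothelial markers to 3886 and 4439 CPM, with 4 of 7 higher. The 7 erythroid markers summed to 2331 and 10773 CPM there, with 6 of 7 higher. The part of these differences in the endothelial values was not tested.

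**Figure D5:**
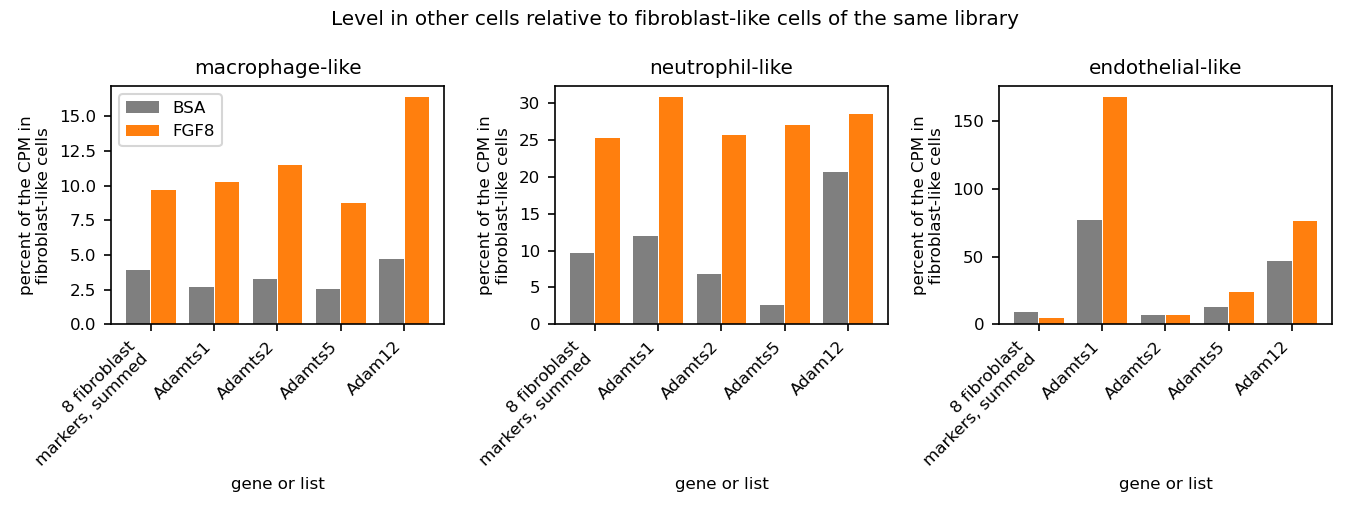
Level of the summed 8 fibroblast markers and of 4 genes in macrophage-like, neutrophil-like and endothelial-like cells, as percent of the CPM in fibroblast-like cells of the same library. That reference level of the marker list itself goes from 32118 CPM (BSA) to 17430 CPM (FGF8). In macrophage-like cells the marker list goes from 3.93% to 9.67% and Adamts1 from 2.71% to 10.3%, whereas in endothelial-like cells the list goes from 9.02% to 4.93% and Adamts1 goes from 77.2% to 167%.

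The inhibitors, substrates and ligands that surround these proteases were read in the same fibroblast-like cells. Of 7 inhibitor genes with at least 10 UMIs, 2 were above 0 and 5 below, where 44.1% of all genes were above 0 and 55.9% below. Timp1 went from 481 CPM (BSA) to 2158 CPM (FGF8), a log2 ratio of 2.17 (2.14 to 2.19), while Timp3, the TIMP that restrains most ADAM and ADAMTS proteases, was at 168 and 180 CPM (0.10). Timp2 (810 to 592 CPM, -0.45) and Reck (67.7 to 39.3 CPM, -0.78) were lower. All 16 matrix substrate genes were below 0, as were 55.9% of all genes, among them Col1a1 (-1.10), Comp (-0.95), Vcan (-0.23) and Acan (-0.06), the last of which lay above the median of all genes (-0.07). Of the 25 genes for shed ligands and receptors 15 were above 0 and 5 were above 1, against 44.1% and 6.62% of all genes. These 5 all encode membrane-bound ligands, 4 of them for the EGF receptor: Ereg went from 12.03 to 69.42 CPM (2.53), Areg from 4.22 to 14.3 CPM (1.76), Hbegf from 36.6 to 118 CPM (1.69) and Epgn from 0.225 to 0.486 CPM (1.11, with an interval that held 0). The chemokine Cx3cl1 went from 1.97 to 4.81 CPM (1.29). Over the same cells the ratios of the sheddases Adam10 and Adam17 were -0.10 and 0.19.

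Among the activators and partners, 6 of 15 were above 0, a share near that of all genes (44.1%), and none was past 1 in either direction. Furin, the convertase that removes the inhibitory prodomain, was at 43.2 CPM (BSA) and 46.7 CPM (FGF8), and Rhbdf2, which carries ADAM17 to the cell surface, at 3.49 and 5.44 CPM, a log2 ratio of 0.64 (0.34 to 0.94). Of the 5 ADAMTS-like genes, which encode secreted relatives without a protease domain, 4 were below 0 (55.9% of all genes), and Adamtsl1 went from 83.6 to 37.0 CPM (-1.17, -1.25 to -1.10). Adamtsl3 was the exception, at 38.2 and 49.8 CPM (0.38).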

How the data were processed

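Cells of both pools were captured with 10x 3′ chemistry. The deposited values are raw UMI counts per gene and barcode, which the authors made with Cell Ranger 9.0.0 on GRCm39, and the submitters' notes also name mm10 and Seurat. Cells with more than 200 and fewer than 7500 genes and under 15% mitochondrial UMIs were kept, normalized by SCTransform, integrated by CCA (30 components, seed 42) and clustered at a resolution of 0.05 (R 4.3.3, Seurat 5.3.0, sctransform 0.4.2). Endothelial-like and keratinocyte-like cells came from a resolution of 0.6, and fibroblast-like cells were re-clustered at 0.2. Doublets were not called. For each library, the UMIs of a cell type were added up, converted to CPM and compared as log2 ratios with exact conditional 95% intervals, in Python 3.11.15 with numpy 2.4.6 and scipy 1.17.1. Totals of 67739460 and 124889213 UMIs set the precision. A gene at 0 in 1 library entered at 3 counts. The calculation of the ratio was checked on simulated counts of the fibroblast-like comparison (20053 genes, 200 changed). There 96.5% of changed genes had the true ratio inside the interval. These counts were drawn independently, without UMIs gathered in single cells. The check therefore cannot show how well the intervals cover the real counts. The genes, lists and rules were chosen with earlier results of these data known. All kept genes are accounted for, with full values for Adam8, Adamts16, Adamts19, the known sheddases, proteoglycanases and procollagen proteinases, genes with 100 UMIs past 1 or -1 in fibroblast-like cells, or past 0.5 or -0.5 with the same sign in each sex, and up to 3 leading genes per cell type. Sites were read from GENCODE vM39 coding sequences, in place of the planned protein sequences, and the asparagine form, the make-up weighting, the separate endothelial-like and keratinocyte-like classes and the percent of the fibroblast level were added after seeing the data. Sequence from chromosome 18 is not reported here. Alternatives were other cell filters, features, resolutions, no integration, per-cell typing, equal weight of cells, thinning to 2000 or 5000 UMIs, centring, each sex, and other minimums of UMIs. Thinning left out cells with fewer UMIs than its target. These were 343 BSA and 781 FGF8 cells at 2000 UMIs, and 798 and 1744 at 5000 UMIs.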

Additional observations from a re-analysis of the deposited data

Results flagged for a closer look

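For 13 values the ratio of FGF8 over BSA went one way in fibroblast-like cells and the other way in a second cell type or sex, each with at least 100 UMIs and a counting interval that left out 0. With 1 library per group the difference itself was not tested. Such values were not counted over all genes, so no all-gene share stands beside this number. Adam12 was at -0.36 in fibroblast-like cells but at 1.43 in macrophage-like, 0.53 in Schwann-like and 0.36 in endothelial-like cells. Adamts9 was at -0.23 in fibroblast-like cells and at 2.57 in keratinocyte-like, 0.61 in smooth muscle or pericyte-like and 0.60 in endothelial-like cells, and Adamts4 was at -0.16 against 1.44 in endothelial-like cells. Adamts5 was at -0.08 against 1.72 in macrophage-like and 0.36 in Schwann-like cells, and Adamts2 at -0.46 against 1.36 in macrophage-like cells. In macrophage-like cells the fibroblast marker list stood at 3.93% (BSA) and 9.67% (FGF8) of its fibroblast level beside these values. In Schwann-like cells it stood at 14.43% and 24.05%, although its summed level there went down, from 4636 CPM (BSA) to 4192 CPM (FGF8). Of the 8 markers, 6 were higher with FGF8 in Schwann-like cells. The level in fibroblast-like cells, to which these percents refer, itself went from 32118 to 17430 CPM. Adam17 went the opposite way, with 0.19 in fibroblast-like cells, -0.26 in macrophage-like and -0.30 in neutrophil-like cells. Adamts18 was at -0.91 in male-called and 0.31 in female-called fibroblast-like cells, with 116 UMIs in male BSA cells. Of its 420 UMIs in all BSA fibroblast-like cells, 59 were in 1 cell, and the ratios without that cell were not computed.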

How the results depend on the processing

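With 1 library per condition no replicate could be left out, and intervals cover counting error only. No paired analysis was possible because each group has 1 library. At a resolution of 0.2 no cluster was named fibroblast-like, so this alternative gave no value. The directions of Adam8, Adamts19, Adamts16, Adamts1 and Adam12 and of the Adamts median held under every alternative run, with sizes that moved. The Adam median (-0.24) changed sign, to 0.0029 with equal weight of cells and 0.031 with cells thinned to 5000 UMIs. The following values lay outside the counting interval of the reported value or changed sign. With the stricter cell filter, Adamts19 was at -1.31, Adamts16 -1.03, Adamts5 0.025 (reversed), Adamts1 0.24, Adam12 -0.27 and Adam17 0.070. With no upper limit on genes, Adamts19 was at -1.98, Adamts5 -0.14 and Adamts1 0.36. At a resolution of 0.6, where only 1 subset of 377 FGF8 and 243 BSA cells was named fibroblast-like and 10 of 18 Adamts genes were below 0, Adam8 was at 1.85, Adamts19 -1.60, Adamts5 0.13 and Adamts4 0.39 (both reversed), Adamts1 0.64 and Adam12 -0.29. With cell types called per cell, Adam8 was at 1.71, Adamts19 -1.62, Adamts5 0.084 and Adamts4 0.046 (both reversed) and Adam12 -0.19. In female-called cells Adamts16 was at -1.14, Adamts5 0.050 (reversed), Adam12 -0.58 and Adam17 0.072, and in male-called cells Adam8 was at 3.52, Adamts19 -1.20, Adamts5 -0.17, Adamts1 0.22 and Adam10 0.036 (reversed). With equal weight of cells Adam8 was at 2.33, Adamts19 -1.21, Adamts16 -0.86, Adamts5 0.0096 and Adam10 0.028 (both reversed), Adamts1 0.36, Adam12 -0.14 and the Adamts median -0.22. Thinned to 2000 UMIs, Adamts19 was at -1.22, Adamts16 -0.88, Adamts5 -0.013, Adamts4 0.027 and Adam17 -0.051 (both reversed), Adam12 -0.091 and the Adamts median -0.18, with 13 of 18 genes below 0. Thinned to 5000, Adamts19 was at -1.39, Adamts16 -1.04, Adamts5 0.053 and Adam10 0.031 (both reversed), Adamts1 0.38, Adam12 -0.26 and Adam17 0.080. Centred on the median of all genes (-0.07), Adamts5 was at -0.0040, Adamts1 0.38 and Adam12 -0.29. With the same make-up of subclusters, Adam8 was at 2.17, Adamts19 -1.37, Adamts5 0.20 (reversed), Adamts1 0.40 and Adam12 -0.19. In the FGF8 library alone 5 genes, against 8 over both libraries, had their highest CPM in fibroblast-like cells. In the subcluster with the most Prg4, Adam8 was at 18.4 CPM (24.7 as reported) and Adamts19 at 7.22 CPM (3.86) at a resolution of 0.1. Without the cell with the most of its UMIs, an alternative chosen after seeing the data, Adam5 was at -0.068 (-0.82 as reported). Shares of all genes were not computed under these alternatives. The causes were not tested.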

Other observations

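In erythroid-like cells Adamts19 had 17 UMIs with BSA and 1 UMI with FGF8, in 83 and 613 cells, and the fibroblast marker list stood there at 10.9% (BSA) and 8.33% (FGF8) of its fibroblast level. In mast-like cells Adamts9 went from 360 CPM (BSA, 125 UMIs) to 139 CPM (FGF8, 48 UMIs), while endothelial-like cells went from 272 to 413 CPM, with 41 and 64 mast-like cells sampled. Adam3, without the catalytic site, was found in 5.14% of BSA and 6.43% of FGF8 macrophage-like cells and in at most 0.180% of fibroblast-like cells.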
